A study of Homo sapiens with 6 samples.

Results

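The genes described here are the NF-kB subunits NFKB1, NFKB2, RELA and RELB and the feedback inhibitors NFKBIA, NFKBIB, NFKBIE and TNFAIP3. NFKBIZ and BIRC3 were grouped with the feedback inhibitors, and their own roles are given below. All were selected by symbol, from their known roles in the pathway and with earlier results of these data known. All 10 were found among the 58884 genes of the deposited table, each in 1 row. RNA sequencing was carried out on DBTRG cells, an established human glioblastoma line labelled wild type, after 5 days of culture in 2D on a rigid dish (3 libraries) or in 3D within a soft gel (3 libraries). No drug, knockdown or other agent is named in either group, the gel material and its stiffness are not stated in the labels, and all libraries come from this 1 line. The labels do not say whether the libraries came from separate cultures, so p-values measure only library-to-library spread, and that spread could be technical.

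NF-kB is a family of dimeric transcription factors. In resting cells the dimers are held in the cytoplasm by IkB proteins. Signals from cytokine and Toll-like receptors activate the IkB kinase complex, the IkB proteins are degraded and the dimers enter the nucleus, where they switch on inflammatory and survival genes together with their own inhibitors. NFKBIA and TNFAIP3 are textbook members of this negative feedback, and in glioblastoma NF-kB activity is known for its link with the mesenchymal cell state. The data are mRNA levels, and neither IkB degradation nor nuclear entry of NF-kB was measured.

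The libraries held 20911363 to 25901499 counts. Along the first principal component (59.2% of variance) the groups lay apart, and the second (17.3%) set rigid dish 1 (score 45.9) apart from the other libraries (-24.8 to 6.32). Among defining markers of the labelled cell type, VIM, CD44, SOX2, SOX9, NES and EGFR were detected at 13.9 TPM (a level corrected for transcript length and library size) or more in every library. The others of the 11 glioma and astrocyte markers were near absent, with GFAP at most 1.36, S100B at most 2.47, PROM1 at most 1.43 and CHI3L1 at most 1.30 TPM, and OLIG2 had a count of 0 in all 6 libraries. SOX2 and CD44 rose and EGFR, NES and VIM fell. Of 8 microglia and macrophage markers, which could bring inflammatory transcripts, 2 passed the filter on low counts and 1, ITGAM, rose. ITGAM had 85 counts in all libraries together, and its TPM overlapped between the groups (0.02 to 0.86 on the dish, 0.35 to 0.82 in the gel). CSF1R was at 0.19 to 0.32 TPM on the dish and 0.39 to 0.66 TPM in the gel. The summed level of the 8 markers was 0.500 to 1.85 TPM on the dish and 2.28 to 4.64 TPM in the gel, with C1QA at a count of 0 throughout. The part of these markers in the results below was not tested. Lymphocyte (at most 2.46 TPM) and endothelial markers (at most 2.07 TPM) had summed levels that overlapped between the groups, while neuronal markers summed to 9.59 to 11.1 TPM on the dish and 5.11 to 8.41 TPM in the gel, which was not tested. Oligodendrocyte markers summed to 31.5 to 43.6 TPM, almost all from MBP. In bulk RNA, fewer cells of a type and less RNA per cell cannot be told apart.

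NF-kB dimers bind kappa B sites, and the promoters of several of these genes carry such sequences. RefSeq promoter windows (GRCh38.p14, 250 bases before to 50 bases after a start site) were found for 8 of the 10 genes, 14 windows in all. RELB and NFKBIE had none. The classical kappa B decamer consensus, searched on both strands, was present in 9 of the 14 windows and in 7 of the 8 genes, whereas 7.73% of all 35116 windows and 9.16% of all 27305 genes held it. Since the genes were chosen for their known roles in the pathway, this contrast is not independent of the choice. RELA held no match in either of its windows. A looser pattern, GGGNNNNNCC on either strand, which includes the decamer, was present in all 14 windows and in 58.7% of all windows. A match describes the letters in the window and does not show that NF-kB was bound there. The upstream parts of 4 windows are shown. They belong to both genes that rose in the gel (NFKBIA, TNFAIP3), the subunit that fell (NFKB1) and the gene with the widest spread (BIRC3). Each is read 5′ to 3′ on the gene's strand and ends at the base before the start site, with decamer matches in capitals.
NFKBIA (chr14:35404750-35404999, minus strand): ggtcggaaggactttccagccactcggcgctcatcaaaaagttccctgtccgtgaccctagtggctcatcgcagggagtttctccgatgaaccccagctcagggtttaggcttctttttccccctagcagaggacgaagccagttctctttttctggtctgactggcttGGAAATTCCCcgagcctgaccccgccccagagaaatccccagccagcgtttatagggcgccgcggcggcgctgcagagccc
TNFAIP3 (chr6:137867009-137867258, plus strand): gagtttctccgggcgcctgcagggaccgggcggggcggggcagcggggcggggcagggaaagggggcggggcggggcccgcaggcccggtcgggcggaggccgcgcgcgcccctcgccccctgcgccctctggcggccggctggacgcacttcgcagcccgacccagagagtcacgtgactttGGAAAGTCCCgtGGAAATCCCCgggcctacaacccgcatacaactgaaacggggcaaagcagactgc
NFKB1 (chr4:102501109-102501358, plus strand): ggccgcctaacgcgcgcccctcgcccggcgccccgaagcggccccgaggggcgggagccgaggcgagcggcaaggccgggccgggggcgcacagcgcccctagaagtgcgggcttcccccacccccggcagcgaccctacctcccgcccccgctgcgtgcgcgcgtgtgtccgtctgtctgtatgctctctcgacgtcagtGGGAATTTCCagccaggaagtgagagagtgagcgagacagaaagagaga
BIRC3 (chr11:102317234-102317483, plus strand): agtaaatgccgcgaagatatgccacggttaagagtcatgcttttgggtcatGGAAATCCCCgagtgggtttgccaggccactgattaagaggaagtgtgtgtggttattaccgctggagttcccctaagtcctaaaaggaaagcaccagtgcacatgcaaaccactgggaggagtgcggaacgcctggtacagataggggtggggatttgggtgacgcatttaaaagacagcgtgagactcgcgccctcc

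NFKBIA had 1 match, GGGAATTTCC on the other strand, which began 81 bases before the start site. TNFAIP3 had a pair of matches, GGGACTTTCC and GGGGATTTCC on the other strand, at 67 and 55 bases before its start site. NFKB1, which moved in the opposite direction, carried the same 10 letters as NFKBIA, on its own strand and 49 bases before the start site. NFKBIB (28 bases before) and NFKBIZ (223 bases before) also carried these letters, and neither gene passed the test. BIRC3 had 1 match, GGGGATTTCC on the other strand, 199 bases before its start site, with the same letters as one of the TNFAIP3 matches. NFKB2 held matches in 2 of its 3 windows, one of them a palindrome that matches on both strands. Decamers were thus present in both genes that rose, in the gene that fell and in 4 genes that did not pass.

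**Figure D1:**
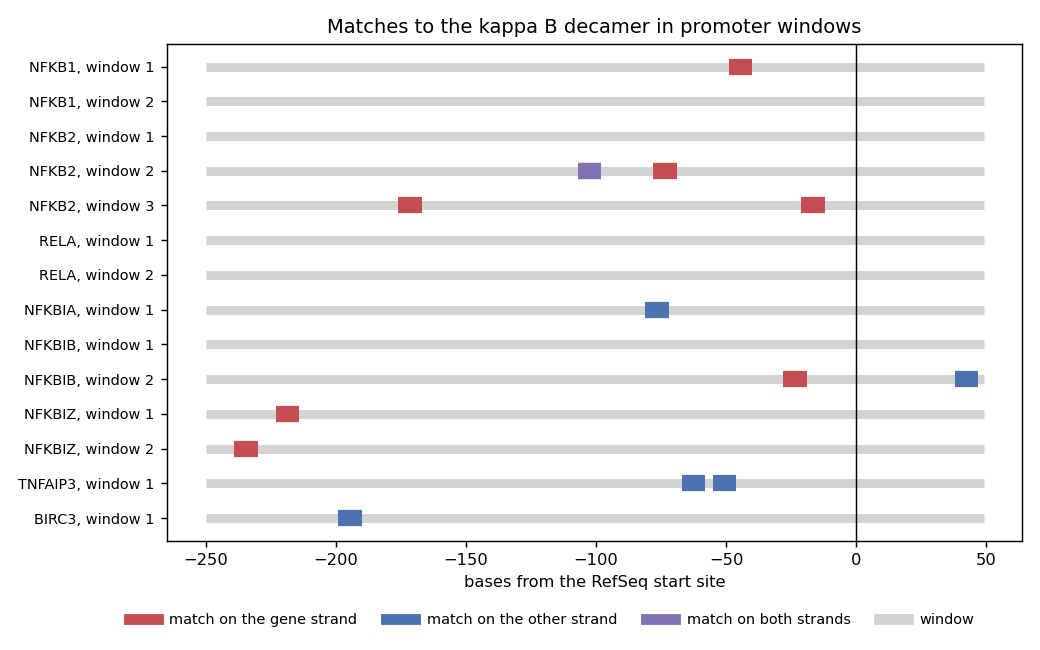
Position of kappa B decamer matches (coloured blocks) in the 14 RefSeq promoter windows of 8 genes, in bases from the start site (vertical line). Matches were present in 9 windows, and both RELA windows were empty.

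In soft gel, mRNA of both classical feedback inhibitors, NFKBIA and TNFAIP3, was a little over 2-fold higher than on the dish, while NFKB1 was modestly lower. The other 7 genes did not pass the threshold, a Benjamini-Hochberg adjusted p below 0.05 over all 16098 genes tested by edgeR's quasi-likelihood test. CPM below denotes counts scaled to library size by the TMM method. Thus 2 of 10 were higher and 1 of 10 lower, against 28.6% of all tested genes called in either direction (15.4% higher and 13.2% lower), so the share called among these genes was close to the background. Their median log2 fold change (soft gel over rigid dish) was 0.019, against 0.054 for all tested genes. The CPM ranges of the groups were separate for 3 of the 10 genes (2 higher and 1 lower), against 44.6% of all tested genes (23.5% higher and 21.1% lower). The 2 rises were called under all 15 alternative analyses that were run, whereas the number of genes called lower ran from 0 to 2.

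**Figure D2:**
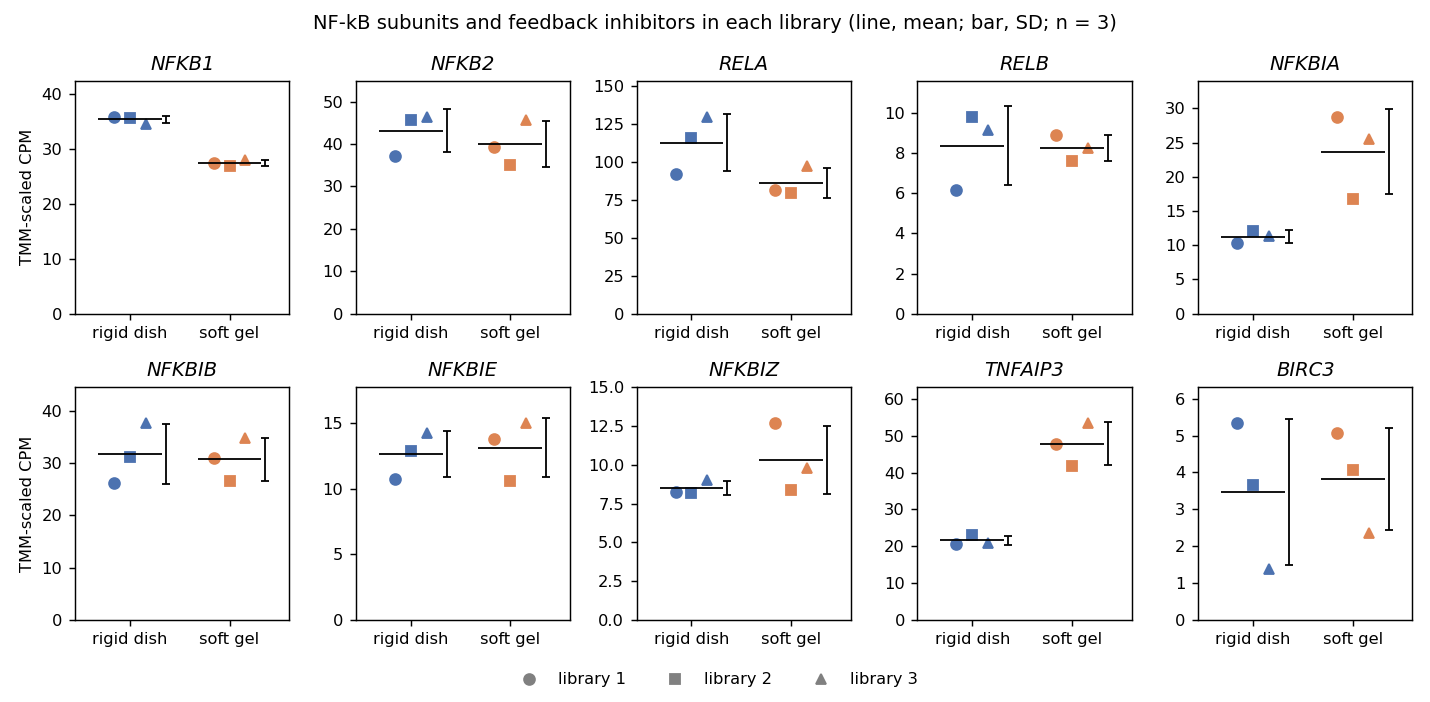
TMM-scaled CPM (vertical axes from 0) of the 10 genes in each of the 3 rigid dish (blue) and 3 soft gel (orange) libraries, with mean and SD. NFKBIA, TNFAIP3 and NFKB1 are the genes whose groups do not overlap, and BIRC3 varies most within the groups.

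TNFAIP3 encodes A20, a ubiquitin-editing enzyme that shuts off signalling upstream of the IkB kinase. It lies on chromosome 6 (ENSG00000118503, hg38, 137867188 to 137883312, plus strand). Its CPM values were 20.7, 23.1 and 20.9 on the dish and 47.9, 41.9 and 53.6 in the gel. The lowest soft gel library was far above the highest rigid dish library. The means were 21.6 ± 1.31 and 47.8 ± 5.82 CPM (SD, n = 3 each), or 1.15 higher on the log2 scale (SE 0.131, edgeR adjusted p = 0.000922), that is 2.21-fold, with a 95% confidence interval of 1.80-fold to 2.72-fold. The authors' deposited table gave a log2 fold change of 1.05 and an adjusted p of 2.36e-09. On the length-corrected scale TNFAIP3 was at 12.9, 11.3 and 7.55 TPM on the dish and 22.3, 19.95 and 21.6 TPM in the gel. An antisense gene, AL357060.1, overlaps 1046 bases of the TNFAIP3 locus and had a mean count of 4.33 on the dish and 23.7 in the gel. No strand setting is stated, so reads of the pair cannot be told apart in the overlap. TNFAIP3 itself had 467 to 554 counts on the dish and 1033 to 1164 in the gel.

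NFKBIA encodes IkB alpha, the inhibitor that NF-kB resynthesises within its own feedback loop (ENSG00000100906, chromosome 14, 35401511 to 35404749, minus strand). Its CPM values were 10.3, 12.1 and 11.4 on the dish and 28.8, 16.8 and 25.5 in the gel. All soft gel libraries were above all rigid dish libraries, with soft gel 2 the lowest of the 3. The means were 11.3 ± 0.933 and 23.7 ± 6.23 CPM, or 1.07 higher on the log2 scale (SE 0.204, edgeR adjusted p = 0.00626), that is 2.10-fold, with an interval of 1.53-fold to 2.89-fold. Leaving out any 1 library gave log2 fold changes of 0.90 to 1.27, all called. In TPM the difference was larger, from 12.1 ± 1.27 to 31.95 ± 8.49, and the log2 fold change was 1.36 by limma on log2(TPM + 0.1).

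NFKBIB and NFKBIE, the other cytoplasmic IkB genes, gave no call. NFKBIB, which encodes IkB beta, a slower-responding inhibitor (ENSG00000104825, chromosome 19, 38899700 to 38908893, plus strand), had 26.3, 31.2 and 37.8 CPM on the dish and 31.0, 26.5 and 34.8 CPM in the gel. These ranges overlapped almost completely, with a log2 fold change of -0.046 (95% interval -0.42 to 0.32, edgeR adjusted p = 0.853). Its locus overlaps SIRT2 on the opposite strand by 163 bases, and 2 of its 6 deposited counts held decimals (752.39 and 654.42), as estimated counts can. NFKBIE, which encodes IkB epsilon (ENSG00000146232, chromosome 6, 44258166 to 44265788, minus strand), had 10.7, 12.9 and 14.2 CPM against 13.7, 10.6 and 15.0 CPM. Its log2 fold change was 0.056 (95% interval -0.35 to 0.46, edgeR adjusted p = 0.838). The intervals of the fold were 0.750 to 1.25 for NFKBIB and 0.783 to 1.38 for NFKBIE, neither of which reaches 2-fold.

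NFKBIZ encodes IkB zeta, a nuclear member of the family that acts as a cofactor on a subset of NF-kB target genes (ENSG00000144802, chromosome 3, 101827991 to 101861022, plus strand). It had 8.27, 8.18 and 9.05 CPM on the dish and 12.7, 8.403 and 9.81 CPM in the gel. Soft gel 1 was the only library clearly above the rest. The log2 fold change was 0.28 (95% interval -0.14 to 0.70, edgeR adjusted p = 0.281), and 0.095 without soft gel 1 (edgeR adjusted p = 0.768).

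BIRC3 encodes cIAP2, a ubiquitin ligase of the tumour necrosis factor receptor complex and itself an NF-kB target (ENSG00000023445, chromosome 11, 102317450 to 102339403, plus strand). It was the least abundant of the 10, with counts of 143, 85 and 31 on the dish and 123, 100 and 50 in the gel. In both groups library 1 was the highest and library 3 the lowest, and the spread within the rigid dish (3.85-fold between its highest and lowest CPM) exceeded the difference between the groups. The log2 fold change was 0.14 with a wide interval of -0.87 to 1.14 (edgeR adjusted p = 0.839), so a change of 2-fold in the upward direction lay within the interval. The estimate was 0.59 without rigid dish 1 and -0.30 without rigid dish 3.

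**Figure D3:**
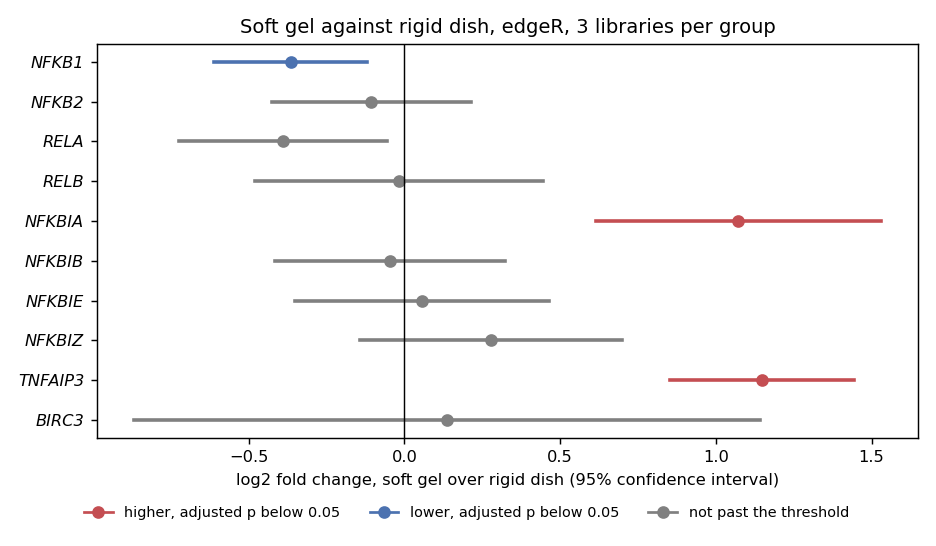
Log2 fold change of the 10 genes, soft gel over rigid dish, with 95% confidence intervals from edgeR. TNFAIP3 (1.15) and NFKBIA (1.07) lie above 0, NFKB1 (-0.37) below, and the BIRC3 interval is the widest; the RELA interval stays below 0 although its adjusted p of 0.0743 misses the threshold.

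Among the subunits, NFKB1 was the 1 gene that fell. It encodes p105, the precursor of the p50 subunit (ENSG00000109320, chromosome 4, 102501329 to 102617302, plus strand). The CPM values were tight within groups, at 35.9, 35.7 and 34.6 on the dish and 27.5, 27.0 and 28.0 in the gel, with no overlap. The log2 fold change was -0.37 (SE 0.109, edgeR adjusted p = 0.0341), that is 0.776-fold with a 95% interval of 0.655 to 0.920. The call was lost on leaving out some single libraries, with edgeR adjusted p = 0.122 on omission of rigid dish 2, 0.122 on omission of soft gel 1 and 0.115 on omission of soft gel 2, at log2 fold changes of -0.37, -0.37 and -0.35. It was also lost with upper quartile scaling (edgeR adjusted p = 0.0513) and on TPM values (limma adjusted p = 0.303 and 0.286), where the levels were 15.0, 12.8 and 11.3 TPM on the dish and 11.2, 10.2 and 10.4 TPM in the gel.

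RELA encodes p65, the main transactivating subunit (ENSG00000173039, chromosome 11, 65653596 to 65663094, minus strand). It had 92.4, 116 and 130 CPM on the dish and 81.4, 79.4 and 97.3 CPM in the gel. Rigid dish 1, the library that stood apart on the second principal component, was the lowest of its group and lay below soft gel 3. The log2 fold change of -0.39 was as large as that of NFKB1 but more variable (SE 0.148, edgeR adjusted p = 0.0743), and it did not pass. It passed without rigid dish 1 (-0.52, edgeR adjusted p = 0.0115) and without soft gel 3 (-0.55, 0.0291), with DESeq2 (adjusted p = 0.039), without the low-count filter (edgeR adjusted p = 0.0166) and on TPM values (limma adjusted p = 0.0422 and 0.0455). In TPM the groups did not overlap, at 88.2, 81.1 and 86.1 on the dish and 61.9, 60.2 and 71.6 in the gel. The authors' deposited table also called RELA, with a log2 fold change of -0.43 and an adjusted p of 0.0331, besides TNFAIP3, NFKBIA (adjusted p = 6.73e-05) and NFKB1 (adjusted p = 0.0163). That table called 30.9% of the genes tested here.

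NFKB2 and RELB, the pair of the noncanonical pathway, did not pass. NFKB2 encodes p100, the precursor of p52 (ENSG00000077150, chromosome 10, 102394110 to 102402529, plus strand), and had 37.3, 45.6 and 46.5 CPM against 39.4, 35.03 and 45.7 CPM. Its log2 fold change was -0.11 (95% interval -0.43 to 0.21, edgeR adjusted p = 0.597). RELB (ENSG00000104856, chromosome 19, 45001430 to 45038198, plus strand) had 6.14, 9.82 and 9.14 CPM against 8.89, 7.59 and 8.26 CPM. Its log2 fold change was -0.018 (95% interval -0.48 to 0.44, edgeR adjusted p = 0.953), with the soft gel libraries inside the range of the rigid dish libraries. In TPM, RELB was 5.61 ± 0.665 on the dish and 6.73 ± 0.523 in the gel, and the sign of its difference changed with the scale.

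Levels can be compared between genes only per length, in TPM. On the rigid dish RELA was the most abundant of the 10 at 85.1 ± 3.64 TPM, followed by NFKBIB (29.2 ± 1.63) and NFKB2 (26.6 ± 1.28), and the ranges of these 3 did not overlap. NFKB1, NFKBIA, TNFAIP3 and NFKBIE followed at means of 13.01 to 9.81 TPM, with ranges that overlapped between neighbours. RELB (5.61), NFKBIZ (4.30) and BIRC3 (0.810) were lowest. In soft gel RELA was again first, at 64.6 ± 6.13 TPM. NFKBIA moved from rank 5 to rank 2, where its range overlapped that of NFKBIB (28.5 TPM), and NFKBIB overlapped NFKB2 (22.95), which overlapped TNFAIP3 (21.3).

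The summed mRNA of the 5 subunits, with REL (c-Rel) added, was 135, 127 and 131 TPM on the dish and 102, 101 and 116 TPM in the gel. The CPM sums overlapped between the groups, with soft gel 3 above rigid dish 1, as for RELA alone (97.3 and 92.4 CPM). RELA made up 64.1% to 65.5% of the TPM sum on the dish and 59.5% to 61.9% in the gel. The shares of NFKB2 (19.2% to 21.3% against 20.4% to 22.1%) and NFKB1 (8.60% to 11.1% against 8.997% to 10.9%) overlapped. RELB took 3.63% to 4.91% against 6.11% to 6.64%, and REL 0.259% to 0.697% against 0.761% to 2.14%. On CPM, which is not corrected for length, the RELA shares overlapped (51.7% to 58.1% against 48.8% to 52.3%). Those of RELB (3.44% to 4.65% against 4.44% to 5.33%) and REL (1.48% to 3.90% against 3.56% to 7.37%) overlapped too. A fixed length per gene does not link the scales, since the ratio of TPM to CPM changed between libraries by amounts that differed between genes. The separation of these shares and of the subunit sum thus depends on the scale used. These shares are descriptions without a test, and a share can move because another subunit moved.

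NFKBIA, NFKBIB and NFKBIE, the cytoplasmic IkB genes, together held 50.4, 50.9 and 52.2 TPM on the dish and 79.4, 55.3 and 78.0 TPM in the gel. These sums were higher in every gel library, again without a test, but their CPM sums overlapped (47.3 to 63.4 against 53.9 to 75.3), with soft gel 2 inside the dish range. NFKBIA made up 20.96% to 26.5% of the TPM sum on the dish and 40.7% to 49.2% in the gel. For each transcript of RELA there were 0.127 to 0.166 of NFKBIA on the dish and 0.374 to 0.630 in the gel. The same ratio for TNFAIP3 was 0.0877 to 0.147 on the dish and 0.302 to 0.361 in the gel. Both ratios were without overlap between the groups, and they combine differences already given for the single genes.

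**Figure D4:**
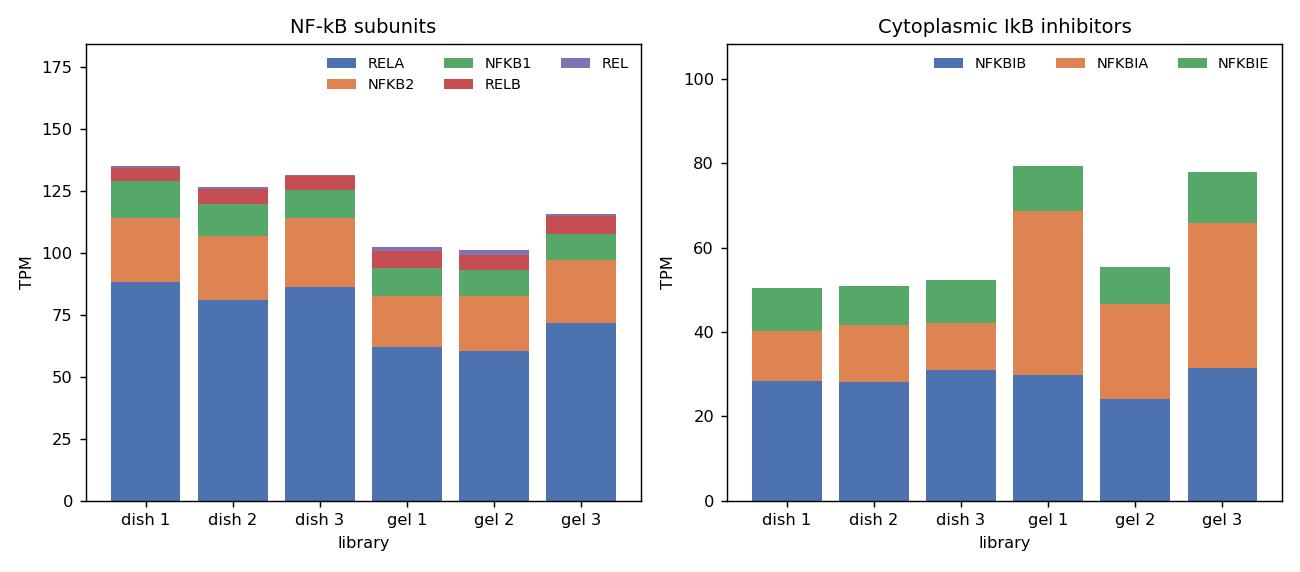
Stacked TPM (from 0) of the 5 NF-kB subunits and of the 3 cytoplasmic IkB genes in the 3 rigid dish and 3 soft gel libraries. In TPM the subunit sum is lower in every soft gel library (101 to 116 TPM) than in any rigid dish library, and the NFKBIA segment is taller. On CPM the subunit sums overlap between the groups.

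The rest of the pathway was described by 4 gene lists, ordered from the cell surface to the target genes. Of 24 receptors and ligands that lead to NF-kB, 13 passed the filter on low counts, 2 rose and 5 fell (53.8% called, against 28.6% of all tested genes), with a median log2 fold change of -0.21. TLR4, the lipopolysaccharide receptor, rose from 64.8 ± 3.09 to 142 ± 27.7 CPM (log2 fold change 1.13, edgeR adjusted p = 0.00161). TNFRSF1A, the main receptor of tumour necrosis factor, fell from 221 ± 35.5 to 128 ± 13.6 CPM (-0.79, edgeR adjusted p = 0.00521). Both had no overlap between the groups. IL1RAP, the accessory chain of the interleukin-1 receptor (-0.80, edgeR adjusted p = 0.0249), and TNFSF12, which encodes the ligand TWEAK (-0.74, 0.0307), also fell. The remaining calls, outside the rule for named genes, were TLR6 (1.31, edgeR adjusted p = 0.0418), IL18 (-1.52, 0.0406) and TNFRSF12A, the TWEAK receptor (-0.64, 0.0209). TLR6 and IL18 were low, at means of 3.25 and 1.01 CPM. The TLR6 groups overlapped, with soft gel 3 (2.35 CPM) below rigid dish 2 (2.67 CPM). The TNFSF12 call was lost on omission of rigid dish 2, rigid dish 3 and soft gel 2 (edgeR adjusted p of 0.103, 0.0641 and 0.116), and that of IL1RAP on omission of rigid dish 2 and soft gel 2 (0.102 and 0.0822). Both were also lost on TPM values, where limma gave adjusted p-values of 0.103 and 0.0961 for TNFSF12 and 0.159 and 0.152 for IL1RAP. The number fallen was 1 without rigid dish 2 or soft gel 2 and 3 without soft gel 1, and the number risen was 1 on leaving out any library other than soft gel 3.

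All 29 adaptors and kinases were tested, and 1 rose and 3 fell (13.8% called, below the 28.6% over all tested genes, median log2 fold change -0.096). TBK1, an IkB kinase-related kinase, rose from 23.7 ± 5.64 to 43.1 ± 12.9 CPM (0.86, edgeR adjusted p = 0.029), with soft gel 3 (28.5 CPM) below rigid dish 1 (29.9 CPM). IKBKG, the regulatory NEMO subunit of the IkB kinase complex (-0.49, edgeR adjusted p = 0.0255), RNF31, the catalytic part of the linear ubiquitin ligase (-0.59, 0.0402), and UBE2V1, a cofactor of the enzyme that builds lysine-linked ubiquitin chains (-0.41, 0.0163), fell. IKBKG has a near-identical partial copy in the genome, so its level is uncertain. The kinase subunits CHUK (0.39, edgeR adjusted p = 0.0793) and IKBKB (-0.27, edgeR adjusted p = 0.084), named outside the rule, did not pass. On TPM values none of the 29 was called by limma, and DESeq2 called 1 higher and 7 lower. Over all genes limma called 2313 and 2287 on TPM values and DESeq2 called 5290, against 4603 in the main analysis. No gene of the 29 was called on omission of rigid dish 2, of soft gel 1 or of soft gel 2. Over all genes these omissions left 2026, 1963 and 1803 calls. TBK1 was also lost without rigid dish 3 (edgeR adjusted p = 0.102), and RNF31 was lost on leaving out any library other than rigid dish 1.

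Of 18 other subunits and inhibitors, 16 were matched and 14 tested, of which 1 rose and 3 fell (28.6% called, the same share as over all tested genes, median log2 fold change 0.093). REL, the c-Rel subunit, rose from 4.88 ± 1.88 to 9.38 ± 2.63 CPM (0.94, edgeR adjusted p = 0.0453). The groups overlapped, with soft gel 3 (6.62 CPM) below rigid dish 1 (6.96 CPM). On TPM values REL was not called (limma adjusted p = 0.115 and 0.13 with pseudocounts of 1 and 0.1). Omission of a single library also ended the REL call, where edgeR gave an adjusted p of 0.141 for rigid dish 2, 0.144 for rigid dish 3, 0.121 for soft gel 1 and 0.177 for soft gel 2. BCL3, a nuclear IkB protein that partners p50 and p52, fell from 11.7 ± 2.46 to 5.02 ± 0.798 CPM (-1.22, edgeR adjusted p = 0.00422). On TPM values its call was lost, at -0.69 and -0.77 (limma adjusted p = 0.0631 and 0.0585 with pseudocounts of 1 and 0.1). PDLIM2, which promotes the breakdown of nuclear RELA (-0.81, edgeR adjusted p = 0.0109), and TNIP1, an A20-binding inhibitor (-0.52, 0.0181), fell. The TNIP1 call was lost on omission of rigid dish 2, soft gel 1 and soft gel 2 (edgeR adjusted p of 0.0792, 0.061 and 0.0788), and that of PDLIM2 on omission of soft gel 1 and soft gel 2 (0.0502 and 0.0584). Inhibitors of the pathway thus differed in direction, with NFKBIA and TNFAIP3 higher and TNIP1 and PDLIM2 lower in the gel. On the omissions that ended these calls, the log2 fold changes were -0.50, -0.55 and -0.43 for TNIP1 and -0.80 and -0.74 for PDLIM2. Omission of rigid dish 2, soft gel 1 and soft gel 2 left 2026, 1963 and 1803 calls over all genes, against 4603.

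Of 30 other NF-kB target genes, 22 were tested, 1 rose and 2 fell (13.6% called, below the 28.6% over all tested genes, median log2 fold change -0.00018). CXCL8, the neutrophil chemokine interleukin-8, had 15.8, 15.5 and 13.9 CPM on the dish and 50.8, 36.7 and 43.4 CPM in the gel (log2 fold change 1.53, edgeR adjusted p = 0.000439). Soft gel 1 was the highest and soft gel 2 the lowest of the 3 gel libraries for CXCL8, as for NFKBIA and NFKBIZ. Other genes, TNFAIP3 and NFKBIE among them, were instead highest in soft gel 3. PLAU, urokinase (-1.08, edgeR adjusted p = 0.00514), and BCL2L1, which encodes the survival protein BCL-XL (-0.74, edgeR adjusted p = 0.0132), fell. The BCL2L1 call was lost on omission of rigid dish 2, soft gel 1 and soft gel 2 (edgeR adjusted p of 0.0518, 0.0599 and 0.0682). The other 19 tested targets did not pass, 10 with a positive and 9 with a negative log2 fold change, from -0.48 for IRF1 (edgeR adjusted p = 0.141) to 1.02 for CXCL2 (edgeR adjusted p = 0.136). Among those named outside the rule, PTX3 (0.95, edgeR adjusted p = 0.0598) and CFLAR (0.37, 0.0643) came near the threshold, as did LIF (-0.35, 0.0752). SOD2 stood in 2 rows of the table. By edgeR the row with more counts was not called (0.31, adjusted p = 0.0591) whereas the other was (0.96, adjusted p = 0.01), and since the rows can share reads the SOD2 level is uncertain.

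**Figure D5:**
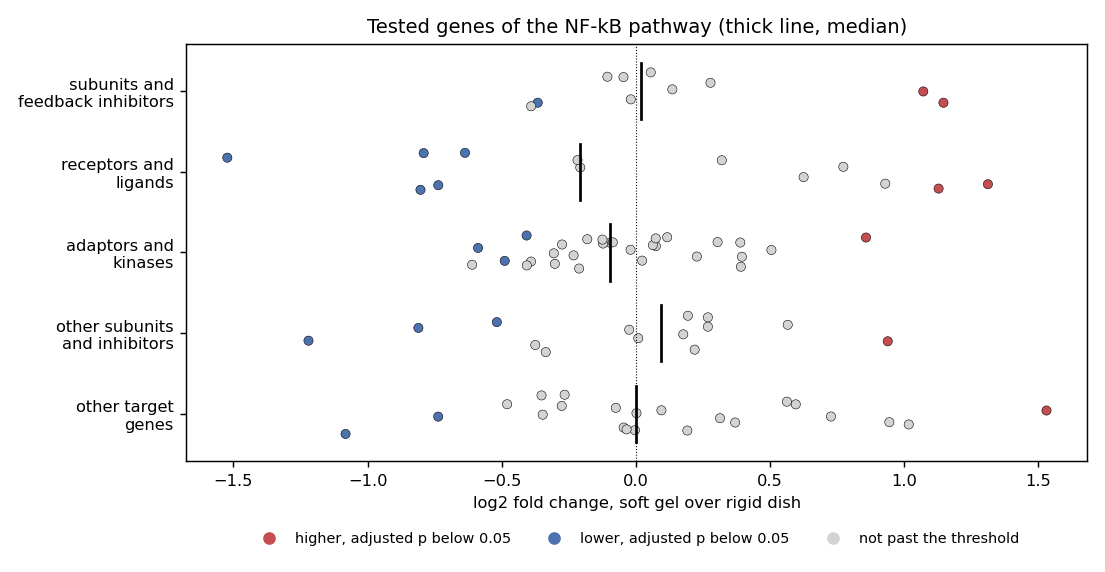
Log2 fold change, soft gel over rigid dish, of every tested gene of the 5 groups (points; red higher and blue lower at an adjusted p below 0.05, grey not past the threshold) with each group's median (line). The medians lie between -0.21 and 0.093, and each group holds genes called in both directions.

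The genes whose pattern was most like that of TNFAIP3, the member with the smallest p, were sought among 10928 protein-coding genes averaging 5 CPM or more. By Pearson's r of log2 CPM over the 6 libraries they were ATP7B (0.998), TSPAN3 (0.997), TMEM60 (0.995), SEZ6L2 (0.995) and CPE (0.994). None of the other 9 members was among them. The 6 values fall into the 2 groups, so any gene that was higher in the gel with little spread scores high on this measure.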

How the data were processed

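The deposited table covered 3 rigid dish and 3 soft gel libraries. The authors deposited estimated counts per gene (11.3% to 13.0% of genes per library held decimals) and TPM values summing to 985477 to 991371 per library. Columns for the fold as a linear ratio, its log2 and raw and adjusted p-values were deposited by the authors too, in a table whose name refers to DESeq2. HISAT2, HTSeq and hg38 appear in the submitters' processing notes. The quantifier and strand setting are not given in the sources used here.

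Counts were rounded to whole numbers, filtered with filterByExpr (minimum count 10), scaled by TMM and tested by quasi-likelihood in edgeR 4.0.16 under R 4.3.3, a step tested on simulated data, with limma 3.58.1 and DESeq2 1.42.0 for alternatives. CPM values are TMM-scaled, and each SE and 95% interval was derived from the test statistic. Library totals limit precision, and p-values are adjusted over all genes tested. Gene positions came from GENCODE release 29 (hg38) and promoters from RefSeq (GRCh38.p14).

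The members and lists were chosen with earlier results of these data known. The rule for named genes took all 10 members and, per list, up to 3 risen and 3 fallen genes with the largest change at 5 CPM or more. Marker lists covered glioma and astrocytes, microglia, lymphocytes, endothelium, neurons and oligodendrocytes. The alternatives were 2 other scalings, 2 other filters, DESeq2, voom, log2(TPM + 1) or log2(TPM + 0.1) in limma, a replicate block and leaving out each library.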

Additional observations from a re-analysis of the deposited data

How the results depend on the processing

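NFKBIA and TNFAIP3 kept their direction and call in all 15 alternatives run, with log2 fold changes of 0.90 to 1.36 and 0.97 to 1.23. The number of members called higher was 2 throughout. The number called lower was 1 in the main analysis, 0 with upper quartile factors, and 2 without the low-count filter, with DESeq2 and with the replicate block (where RELA was added, at an edgeR adjusted p of 0.0149), and it was 0 to 2 on leaving out 1 library. On TPM values it was 1, with RELA called in place of NFKB1. RELB, which was never called, had a positive sign with upper quartile factors (0.018), limma-voom (0.018), log2(TPM + 1) (0.23), log2(TPM + 0.1) (0.26) and the replicate block (0.0028), and ran from -0.21 to 0.11 on leaving out 1 library. NFKBIE was at -0.0027 without the filter. Leaving out 1 library gave -0.11 to 0.19 for NFKBIE, -0.20 to 0.049 for NFKBIB and -0.30 to 0.59 for BIRC3. The count over all genes was 4603, and 2313 and 2287 on log2(TPM + 1) and log2(TPM + 0.1), 6442 with the replicate block and 1803 to 6164 on leaving out 1 library (2026 when rigid dish 2 was omitted, 1963 when soft gel 1 was and 1803 when soft gel 2 was). With all libraries kept, the target genes called higher were 1 to 3 and called lower 2 to 4. The RELA share of subunit mRNA was 54.9% on the dish and 50.2% in the gel when taken from CPM, which is not corrected for length, and 64.7% to 65.4% and 60.0% to 61.2% on leaving out 1 library. The replicate numbers are not said to pair libraries. Deviations of same-numbered libraries from their group means correlated at 0.22, 0.0091 and 0.31, and those of differently numbered libraries at -0.30 to 0.14. With means of only 3 libraries, these values cannot show whether the numbers pair libraries. The cause of these changes was not tested.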
